A study of Rattus norvegicus with 4 samples.

Results

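The genes described here carry or relay signals from the antigen receptors of T and B lymphocytes. The set holds 10 genes, chosen by symbol: the surface receptors Cd4, Cd2, Cd5, Cd28 and Ctla4, the kinases Lck, Blk, Zap70 and Syk, and the adaptor Lat. Transcripts were matched to these symbols through the RefSeq gene table, and the row with the highest mean was kept for each gene. Of the 10 genes, 5 had a value on all 4 arrays (Cd4, Blk, Zap70, Syk and Lat), among 6968 genes measured by name. Cd2, Cd5, Cd28 and Ctla4 had a row that was blank on all 4 arrays, and no row was matched to Lck by name.

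Total RNA of colon tissue from male Sprague Dawley rats was hybridized to 4 one-color NimbleGen arrays, taken here as 1 array per rat. The 2 rats of the MSCT group had colitis induced with TNBS (2,4,6-trinitrobenzene sulfonic acid) and then received green fluorescent protein-labeled mesenchymal stem cells through the tail vein. The 2 rats of the control group are called normal rats in the sample descriptions but IBD controls in the paper and in part of the series text, so whether they carried TNBS colitis is not settled here. The age of the rats was not given in the sources used here, the day after transplantation differs within the paper, and the tissue was a piece of the lesion region holding epithelium, muscle wall and immune cells together.

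When a T cell receptor meets its antigen, Lck, which is held by the co-receptor Cd4, phosphorylates the receptor's CD3 and zeta chains. Zap70 docks on these chains and phosphorylates Lat, the membrane scaffold from which calcium, Ras and NF-kB signals start. In B cells, Src-family kinases such as Blk take the place of Lck, and Syk, the close relative of Zap70, takes its place. Cd28 adds the costimulatory signal, Ctla4 competes with it for the same ligands, Cd2 binds partner cells, and Cd5 dampens the receptor signal. In the colon, such cells lie in the lamina propria, in lymphoid follicles and between epithelial cells.

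The start regions of Zap70, Syk and Lat, the 3 measured genes found in the RefSeq promoter table (GRCr8), are shown. Blk and Cd4 had no entry there. Zap70 and Syk, the related kinases of T and B cells, had higher values on both MSCT arrays, whereas Lat, the scaffold next in the chain, did not. Each run is the 250 bases before the annotated start, 5′ to 3′ on the gene's strand, and capitals mark the ETS core AGGAAG and the RUNX core TGTGGT on either strand.
Zap70, chr9:46485355-46485604, plus strand: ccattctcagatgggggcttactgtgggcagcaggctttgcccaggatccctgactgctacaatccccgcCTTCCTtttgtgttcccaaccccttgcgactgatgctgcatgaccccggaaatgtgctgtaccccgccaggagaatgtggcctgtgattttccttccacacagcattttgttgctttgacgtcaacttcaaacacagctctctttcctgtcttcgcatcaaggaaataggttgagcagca
Syk, chr17:12813274-12813523, minus strand: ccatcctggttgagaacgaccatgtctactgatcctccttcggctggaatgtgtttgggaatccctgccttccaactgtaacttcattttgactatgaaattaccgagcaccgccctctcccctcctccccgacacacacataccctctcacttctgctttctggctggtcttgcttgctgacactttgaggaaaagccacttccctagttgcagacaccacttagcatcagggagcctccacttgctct
Lat, chr1:190372137-190372386, minus strand: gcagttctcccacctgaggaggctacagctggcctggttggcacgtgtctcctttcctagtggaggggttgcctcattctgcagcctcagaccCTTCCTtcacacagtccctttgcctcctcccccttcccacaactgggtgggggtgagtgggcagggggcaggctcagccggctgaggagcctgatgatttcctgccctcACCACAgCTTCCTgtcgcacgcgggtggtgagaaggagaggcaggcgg
AGGAAG was found 1 time before Zap70, 2 times before Lat and 0 times before Syk, and it occurs in 29.5% of 33469 such windows. TGTGGT was found 1 time before Lat and 0 times before the others, against 14.5% of all windows. The E-box CANNTG, found in 65.5% of all windows, occurred 1 time before Zap70, 2 times before Syk and 4 times before Lat. These matches describe the letters of the windows, no binding was measured, and a link to the expression differences was not tested.

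In the MSCT group, Zap70 and Blk were more than 2-fold higher than in the control group, Syk was 1.41-fold higher, and Cd4 and Lat showed no difference beyond the spread between replicates. Values were compared as log2 intensities with limma, a linear model fitted to all 18350 measured rows, and a screen with the study's thresholds was applied to the limma p-values, a change over 2-fold together with an unadjusted p under 0.05. Of the 5 genes, 2 passed the screen, both higher in the MSCT group, where 2.12% of all rows and 3.13% of the named genes passed in that direction. In this fit 0 of the 5 genes and 0 of all rows had an adjusted limma p under 0.05, while 3 of the 5, all higher, had an unadjusted p under 0.05, against 4.8% of all rows that were higher with such a p. With a variance that follows intensity, robustly fitted, 387 rows had an adjusted p under 0.05, and without the dimmest 50% of rows 247 had, in both cases with 0 of the 5 genes. By the methods' t-test, the plain test with equal variances to which the paper's analysis of variance reduces here, 0 of the 5 passed the screen and 1, Syk, had an unadjusted p under 0.05. The groups did not overlap in 3 of the 5 genes, with MSCT higher in each, against 21.3% of all rows. The median log2 difference of the 5 genes was 0.49, and it was -0.02 over all rows and 0.05 over the named genes. With 2 arrays per group, 0.333 is the smallest two-sided p of an exact permutation test, and smaller p-values here rest on the normal model of the test.

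**Figure D1:**
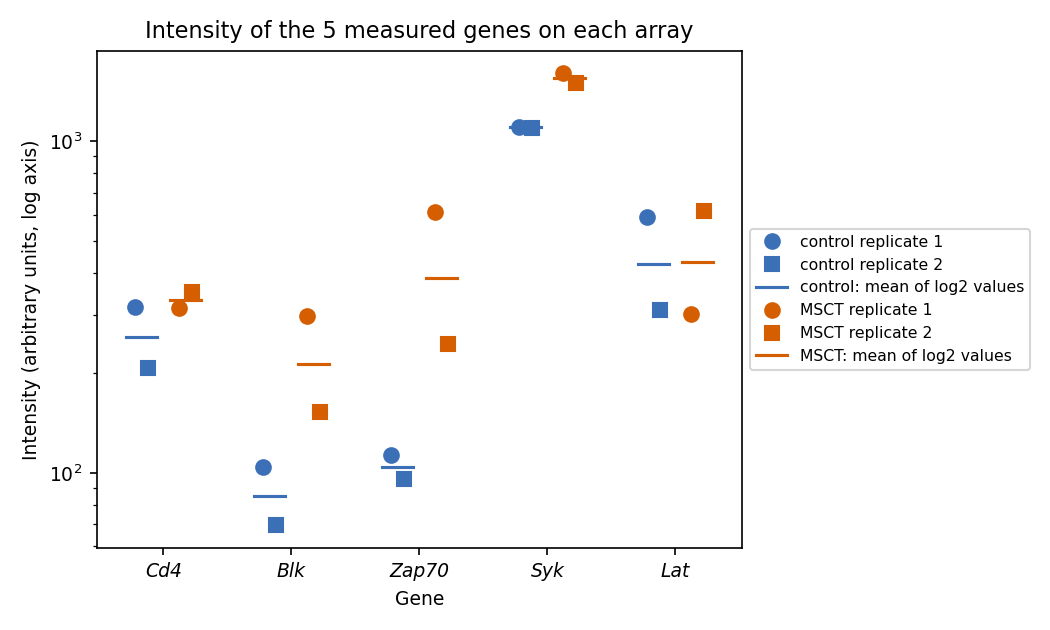
Linear intensity (arbitrary units, log axis) of the 5 measured genes on each of the 4 arrays, with control arrays in blue, MSCT arrays in orange, circles for replicate 1, squares for replicate 2 and a line at the mean of the log2 values of each group. Both MSCT arrays lie above both control arrays for Blk, Zap70 and Syk, whereas the groups overlap for Cd4 and Lat. Heights of different genes come from different probes and are not comparable.

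Zap70 (NM_001012002), the kinase that docks on the T cell receptor and is also used by natural killer cells, had the largest difference of the 5 genes. Control replicates 1 and 2 gave intensities of 114 and 95.6, and MSCT replicates 1 and 2 gave 612 and 245. Both MSCT arrays were above both control arrays, and the lower of them was 2.15-fold above the higher control array. On the log2 scale, Zap70 rose from 6.70 ± 0.18 (SD, n = 2) to 8.60 ± 0.94 (SD, n = 2), a difference of 1.89 (standard error 0.49; limma adjusted p = 0.325, with all rows in the adjustment). This is 3.71-fold, with a 95% confidence interval from 1.51 to 9.12, and 0.376% of all rows had a larger rise. The MSCT arrays were 2.50-fold apart, and 11.9% of the rows in the same quartile of mean intensity, the dimmest, were farther apart. MSCT replicate 1 set much of the size: without it, the difference was 1.23, and without MSCT replicate 2 it was 2.55. Without control replicate 1 the unadjusted limma p was 0.0523 and without control replicate 2 it was 0.0723, so Zap70 then missed the screen. It also missed it by the methods' t-test, with a p of 0.107.

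Syk (NM_012758), the kinase of the same family that relays the B cell receptor and also works in macrophages and mast cells, had the closest replicates. The control intensities were 1104 and 1099, and the MSCT intensities were 1603 and 1495. The groups did not overlap, the control arrays were closer to each other than in 98.7% of the rows in the same quartile of mean intensity, and the lower MSCT array was 1.35-fold above the higher control array. The log2 mean went from 10.11 to 10.60, a difference of 0.49 (standard error 0.18; limma adjusted p = 0.417). This is 1.41-fold (95% confidence interval 1.00 to 1.97), below the limit of the screen, with an unadjusted limma p of 0.0496. Single arrays left out gave differences between 0.44 and 0.54, but an unadjusted p under 0.05 was not kept in those fits. With the replicate number as a block the unadjusted limma p was 0.0659. In the order of rises, 12% of all rows lay above Syk.

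Blk (NM_001025751), a Src-family kinase found mainly in B cells, had a profile near that of Zap70. Intensities of 104 and 69.5 were read in the control group and of 298 and 153 in the MSCT group. The groups did not overlap, replicate 1 was the higher array in both of them, and the lower MSCT array was 1.46-fold above the higher control array. The log2 values were 6.41 ± 0.41 (SD, n = 2) in the control group and 7.74 ± 0.68 (SD, n = 2) in the MSCT group, a difference of 1.32 (standard error 0.42; limma adjusted p = 0.365), or 2.50-fold (95% confidence interval 1.15 to 5.43). Blk also lay in the dimmest quartile of rows. Without MSCT replicate 1 the difference was 0.84 and below 2-fold, and without control replicate 2 it was 1.03 with an unadjusted limma p of 0.130, so Blk missed the screen both times. By the methods' t-test its p was 0.143. Lck, the Src-family kinase that T cells use at this step, was not analysed here because no row carried its name.

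Lat (NM_030853), the scaffold that Zap70 phosphorylates, had nearly equal means in the groups. The control replicates read 591 and 309, and the MSCT replicates read 302 and 616. Each group held 1 high and 1 low array, and the groups overlapped fully. The log2 difference was 0.01 (standard error 0.50; limma adjusted p = 0.994). The 95% confidence interval of the fold reached from 0.401 to 2.54 and so held a 2-fold change in either direction. In all, 12.4% of the rows in its quartile of mean intensity had control arrays farther apart, and 6.24% had MSCT arrays farther apart. The sign of Lat was not stable, with differences of -0.46 without control replicate 2 and -0.50 without MSCT replicate 2, against 0.48 and 0.53 without the other arrays.

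Cd4 (NM_012705), the co-receptor of helper T cells, which rat macrophages also carry, was the 1 surface receptor of the set with values. Its intensities were 317 and 207 in the control group and 314 and 351 in the MSCT group. Control replicate 2 was the low array, and the other 3 lay close together, so the groups overlapped. The log2 difference was 0.37 (standard error 0.28; limma adjusted p = 0.624), or 1.30-fold with a 95% confidence interval from 0.774 to 2.17. It was 0.07 without control replicate 2 and 0.68 without control replicate 1.

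Most of the surface receptors of the set were left without a value. Of the 5 receptor genes of the set, 4 were blank on all 4 arrays (Cd2, Cd5, Cd28 and Ctla4), whereas 0 of the 4 kinase and adaptor genes with a row were. Among all named genes with a row, 27.6% were blank. The rule behind the blanks was not given in the sources used here, and no level or direction can be given for these genes. Of the shared ligands of Cd28 and Ctla4, Cd80 was blank and Cd86 was measured, at 826 and 1141 in the control group and 602 and 1089 in the MSCT group. Cd86 overlapped between the groups, with a log2 difference of -0.26 (standard error 0.37), and was named after its values were seen.

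**Figure D2:**
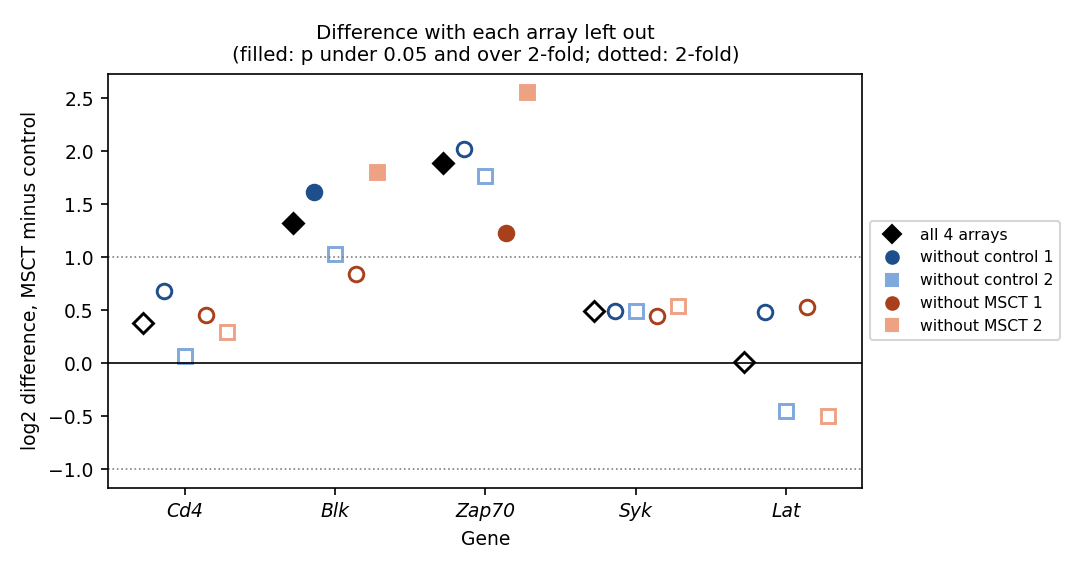
Difference in log2 intensity, MSCT minus control, of the 5 measured genes with all 4 arrays (diamonds) and with each array left out in turn (circles and squares). Filled symbols passed an unadjusted limma p under 0.05 and a 2-fold change, and dotted lines mark 2-fold. Zap70 spans 1.23 to 2.55 and Blk 0.84 to 1.81, Syk stays between 0.44 and 0.54, and Lat lies on both sides of 0.

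The likeness of profiles was measured as the root mean square distance between log2 values of the 4 arrays, each gene centred on its mean. Blk lay at a distance of 0.33 from Zap70, place 9 of the 6967 other named genes, while Syk (0.83) was at place 672, Cd4 (0.93) at 1456 and Lat (1.28) at 5854. The 5 nearest genes were Acta1 (0.20), Gsta3 (0.23), Fut9 (0.27), Slc12a8 (0.30) and Lcn2 (0.31), which encode a muscle actin, a glutathione transferase, a fucosyltransferase, a membrane transporter and the neutrophil-gelatinase-associated lipocalin. With 4 arrays, this order largely follows the size of the difference and the gap between the MSCT arrays, and no test was made of it.

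The rest of the antigen receptor pathway, given by 7 lists of 115 genes, showed no common direction. Of these genes 51 were measured, 15 were blank and 49 had no row by name. By the same limma fit, 2 were higher past the screen, Txk and Sla, and 1 was lower, Skap1. Together they make 5.88% of the measured genes, where 4.63% of all rows passed, 2.12% higher and 2.51% lower. Of the named genes, 3.13% were higher past the screen. By limma 0 of the 51 genes had an adjusted p under 0.05 (1, Jun, with the intensity-dependent robust variance or without the dimmest 50% of rows), 8 had an unadjusted p under 0.05 (3 higher and 5 lower, in all 15.7%, where the shares of all rows were 4.8%, 7.17% and 12%), and by the methods' t-test 0 passed the screen and 5 had an unadjusted p under 0.05. The groups did not overlap in 24 genes, 47.1% against 45.8% of all rows, and the median log2 difference was 0.02.

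Of the T cell receptor chains and co-receptors in these lists, only the chain Cd3g and the co-receptor Cd8a were measured. Neither had an unadjusted limma p under 0.05, and both lay in the dimmest quartile of rows. Cd3g, a CD3 chain that every T cell receptor complex carries, read 170 and 182 in the control group and 250 and 149 in the MSCT group, a log2 difference of 0.13 (standard error 0.31; 95% confidence interval -0.70 to 0.96). Cd8a, the co-receptor of cytotoxic T cells, read 234 and 161 in the control group and 129 and 295 in the MSCT group, a log2 difference of 0.01 (standard error 0.47). For both genes the groups overlapped, and the sign turned when single arrays were left out, to -0.25 for Cd3g without MSCT replicate 1 and to -0.26 and -0.59 for Cd8a without control replicate 2 and MSCT replicate 2. Cd3d, Cd247 and Cd8b were blank, and Cd3e had no row by name.

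Among the 8 measured genes of receptor-proximal signaling in T cells, both directions occurred. Txk, a Tec-family kinase of T and natural killer cells, rose from 59.7 and 107 in the control group to 275 and 171 in the MSCT group, a log2 difference of 1.44 (standard error 0.41; limma adjusted p = 0.338). Skap1, an adaptor that links the receptor to integrin adhesion, fell from 305 and 227 to 67.1 and 134, a difference of -1.47 (standard error 0.41; limma adjusted p = 0.338). The groups did not overlap for either gene, but neither call was kept with all single arrays left out. Txk had unadjusted limma p-values of 0.0755 without control replicate 1 and 0.0714 without MSCT replicate 1. Skap1 had one of 0.0906 without control replicate 1 and was at -0.97, below 2-fold, without MSCT replicate 1. Fyn, the Src-family kinase that works beside Lck, was named after its values were seen. Its intensities were 289 and 367 in the control group and 611 and 587 in the MSCT group, with no overlap. It was 1.84-fold higher (log2 difference 0.88, standard error 0.22; limma adjusted p = 0.321), below the limit of the screen, which it passed without control replicate 2 (1.05).

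Of the 9 measured negative regulators, 1 passed the screen. Sla, the Src-like adaptor that lowers the number of receptors on the cell surface, rose from 82.0 and 122 in the control group to 299 and 206 in the MSCT group, a log2 difference of 1.31 (standard error 0.32; limma adjusted p = 0.320). With each array left out, its difference lay between 1.03 and 1.60. By the methods' t-test Sla missed the screen, and it lay in the dimmest quartile of rows. The other 8 negative regulators, among them phosphatases, a ubiquitin ligase and diacylglycerol kinases, had an unadjusted p above 0.05.

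B cell receptor signaling showed no gene past the screen among the 7 measured, with a median log2 difference of 0.08. Blk, which passed the screen, and Syk, which did not, belong to the same chain. Plcg2, the phospholipase that Syk and Btk switch on, was lower by the mean, with a log2 difference of -0.66 (standard error 0.22; limma adjusted p = 0.375). The 4 measured costimulatory and inhibitory receptors and the 2 measured ligands held 0 genes past the screen, with medians of -0.22 and -0.10. Of the 19 downstream kinases and transcription factors, 0 passed the screen and the median was -0.03. All 19 lay in quartiles 3 and 4 of mean intensity, the brighter ones, where 3.88% and 1.5% of rows passed in either direction. In the dimmest quartile, which held Zap70, Blk, Txk, Sla and Skap1, 6.28% passed. The 3 downstream genes with an unadjusted limma p under 0.05 were all lower in the MSCT group. They were Jun (-0.83) and Fos (-0.52), which form the AP-1 factor, and Ppp3cc (-0.62), a catalytic subunit of calcineurin. Jun read 4416 and 4154 in the control group and 2414 and 2399 in the MSCT group. Plcg2, Jun, Fos and Ppp3cc were named after their values were seen.

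**Figure D3:**
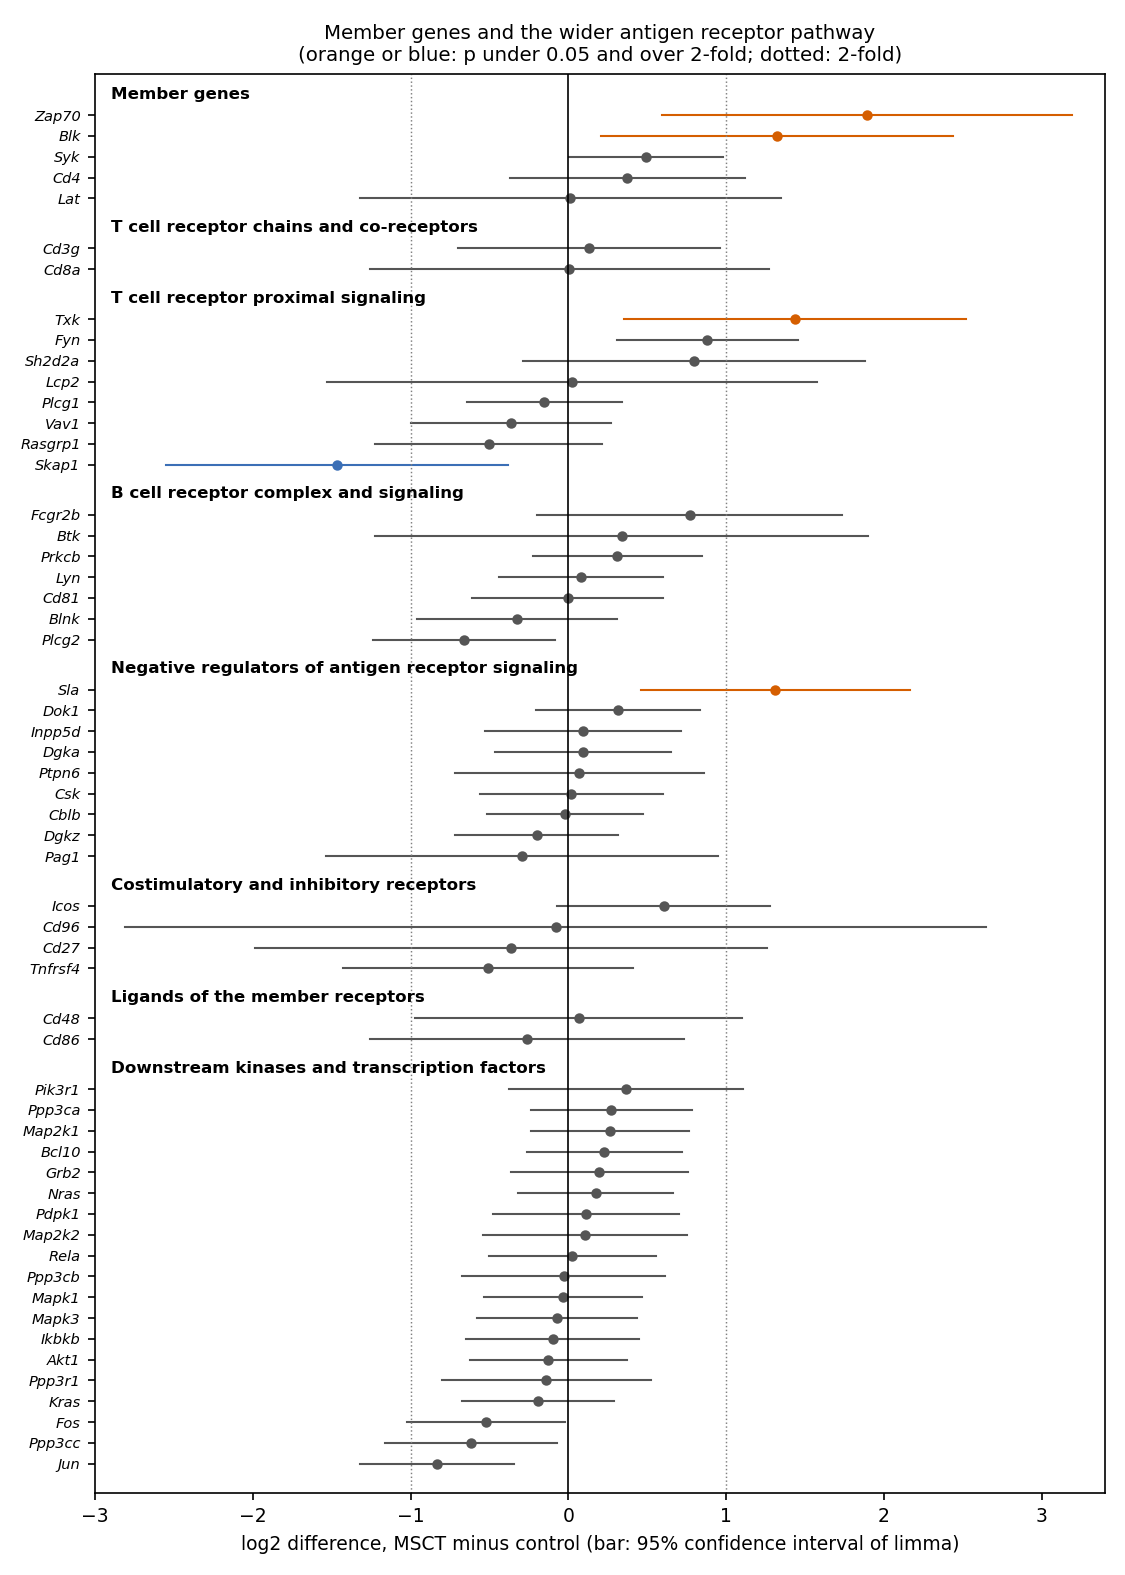
Difference in log2 intensity, MSCT minus control, with 95% confidence intervals from limma, for the 5 measured genes of the set and the 51 measured genes of the 7 wider lists. Orange genes (Zap70, Blk, Txk, Sla) were higher and the blue gene (Skap1) lower past an unadjusted p under 0.05 and 2-fold. Most downstream genes lie within 2-fold of 0, whereas intervals of the T cell genes are wide.

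Markers of the cells that could carry these genes did not all move together. In whole tissue, a gain of cells of a type and a gain of RNA per cell cannot be told apart. Of the 10 T cell markers, Cd3g, Cd8a and Ccr7 were measured, and 0 of these 3 passed the screen (median log2 difference 0.13). Ccr7, a homing receptor of naive T cells and dendritic cells, read 216 and 60.3 in the control group and 126 and 150 in the MSCT group, and its sign depended on control replicate 2 (0.27, and -0.65 without it). The summed intensity of the 3 genes was 404 to 620 on the control arrays and 506 to 593 on the MSCT arrays. Such sums, here and below, weigh the brightest genes of a list most, as heights of different probes are not comparable. Of the 10 B cell markers only Cxcr5 was measured (log2 difference 0.54, standard error 0.38), with 161 and 101 in the control group and 239 and 143 in the MSCT group, which overlapped. Cd79b was blank, and Ms4a1 and Cd79a had no row by name, so these defining B cell markers are without values here.

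Lists of other immune cells held genes past the screen, where 2.12% of all rows and 3.13% of the named genes were higher past it. Of all rows, 21.3% lay higher without overlap. Of the 9 natural killer cell markers, 4 were measured, all 4 with MSCT above control on every array. They all lay in the dimmest quartile of rows. Of these 4, 2 passed the screen: Gzmb (log2 difference 1.92, standard error 0.38) and Nkg7 (1.72, standard error 0.41). Klrb1a was at 0.82, and at 0.11 without control replicate 1. By the methods' t-test Gzmb and Nkg7 missed the screen, with p-values of 0.0627 and 0.0863, whereas the macrophage and plasma cell genes named here as past the screen kept it. The summed intensity of the 4 natural killer cell markers was 423 to 485 on the control arrays and 1104 to 1193 on the MSCT arrays. Ncr1, Klrd1, Klrk1, Klrc1 and Prf1 were blank, and which cells carried the 4 measured genes was not tested. Of the 10 macrophage and monocyte markers, 7 were measured and 4 passed the screen, C1qb (1.61), Cd68 (1.29), C1qa (1.28) and Csf1r (1.00). The sum over these 7 genes was 14081 to 15276 on the control arrays and 19200 to 21679 on the MSCT arrays. Cd14 within that list was at -0.04. It was the largest part of that sum, at 9308 and 10814 in the control group and 8986 and 10578 in the MSCT group. Csf1r was just below 2-fold without control replicate 2 (0.96) and without MSCT replicate 2 (0.97). Of the 8 plasma cell markers, 3 were measured by name, and Jchain had no row by name. The paper lists genes of the immunoglobulin joining and heavy chains among its top 10 raised genes on these chips. Their values are not covered here. Of the 3 measured markers, Mzb1 passed the screen (1.26), Xbp1 was at 1.00, just below 2-fold, and Sdc1 at 0.22. The sum was 5271 to 5420 on the control arrays and 8517 to 8671 on the MSCT arrays. Most of it came from Xbp1 and Sdc1, as Mzb1 read 111 and 99.4 in the control group and 260 and 244 in the MSCT group. Mzb1 lay in the dimmest quartile of rows. Xbp1 read 3005 and 2481 in the control group and 5536 and 5351 in the MSCT group. Which cells of the tissue carried Xbp1 and Sdc1 was not tested. The part of these cells in the differences of Zap70, Blk and Syk was not tested.

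Of the 10 markers shared by leukocytes, 8 were measured and 3 passed the screen, all higher: Laptm5 (1.33), Cd53 (1.07) and Arhgdib (1.02). Coro1a was at 0.99, just below 2-fold. Cd52, a small surface glycoprotein of lymphocytes that was named after its values were seen, lay the other way, at 258 and 312 in the control group and 202 and 140 in the MSCT group (-0.76, standard error 0.27). The summed intensity of the 8 genes was 6588 to 7526 on the control arrays and 10089 to 10993 on the MSCT arrays. Cd53 missed the screen by the methods' t-test (its p was 0.0696), without control replicate 2 (0.93) and without MSCT replicate 1 (0.81), and so did Arhgdib without control replicate 2 (0.93) and without MSCT replicate 2 (0.82).

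Neutrophils, mast cells and dendritic cells had 1, 3 and 2 measured markers and 0 past the screen, with log2 differences of 0.54 for S100a9, 0.18 for Kit, -0.09 for Tpsab1, 0.86 for Hdc and 0.60 for Batf3. Mast cell proteases outside that list, named after their values were seen, included genes past the screen. Mcpt1 (NM_172044) read 104 and 100.3 in the control group and 2530 and 1871 in the MSCT group, a log2 difference of 4.41 (standard error 0.23, limma adjusted p = 0.257). The symbol is that of the RefSeq gene table. The paper lists Mcpt1 and Mcpt2 apart and prints the fold of this row, 21.28, under Mcpt2. Mcpt9 was at 1.61, also past the screen, and Mcpt8 (1.00) and Mcpt4 (0.34) were not. Syk also signals in mast cells, and the part of these cells in its difference was not tested.

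Of the epithelial genes 8 of 10 were measured and 0 passed the screen, with Epcam at 0.07, Cdh1 at -0.03 and Krt8 at 0.12. The median of the 8 was 0.18 and the largest difference was 0.48. Of the 8, 5 lay higher in the MSCT group without overlap, against 21.3% of all rows. Epcam, Cdh1 and Krt8 lay in the brightest quartile of rows. Of the smooth muscle genes 5 of 7 were measured, with a median of 0.02 and Acta2 at -0.04, Tagln at 0.02 and Cnn1 at 0.08. Fibroblast genes (Dcn 0.01, Lum 0.03 and Col3a1 0.78) and endothelial genes (Pecam1 0.29 and Kdr 0.05) held 0 past the screen. All 4 measured enteric neuron markers were lower on both MSCT arrays than on both control arrays, as were 24.5% of all rows. Their sums were 7651 to 8118 in the control group and 5390 to 5505 in the MSCT group. Uchl1 was the largest part, at 4376 and 4402 in the control group and 3052 and 2970 in the MSCT group. Among the 4 markers Elavl4 passed the screen (-1.06), but not by the methods' t-test, and its difference was -0.67 without control replicate 1. Uchl1 (-0.54) and Snap25 (-0.32) stayed within 2-fold. The reference genes were at 0.12 for Actb, -0.19 for Gapdh, 0.44 for Hprt1 and -0.17 for B2m.

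**Figure D4:**
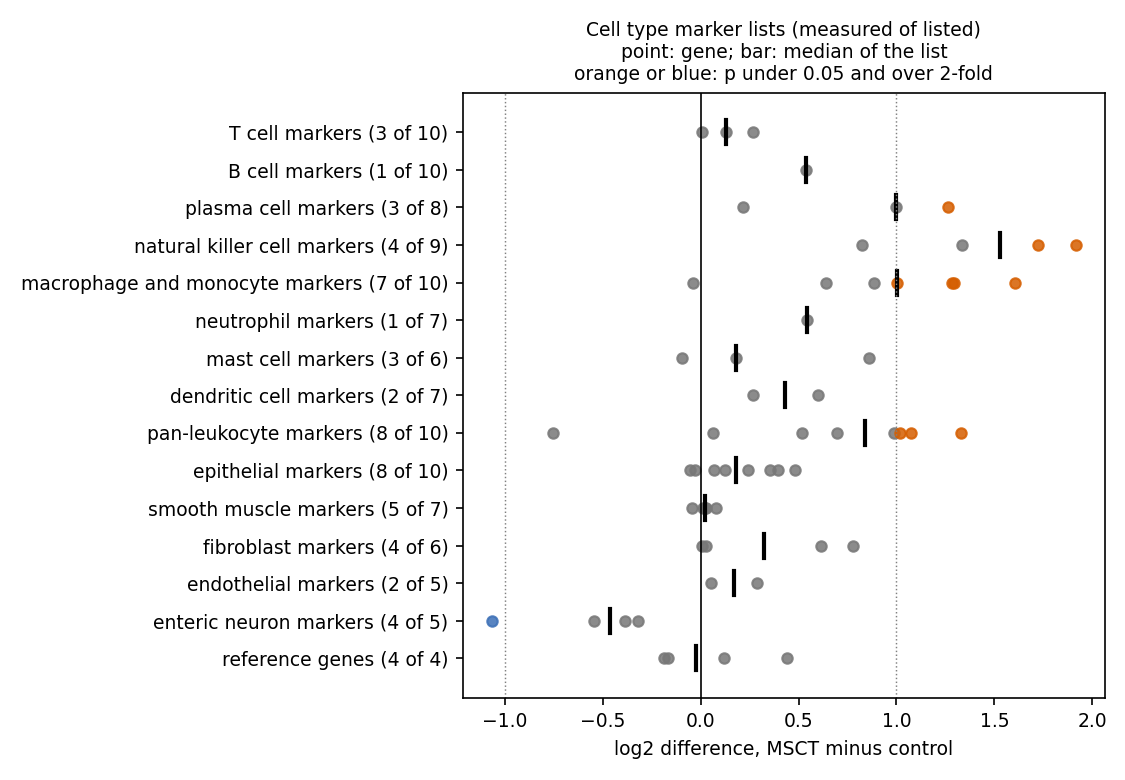
Difference in log2 intensity, MSCT minus control, of the measured genes of each cell type marker list (points) with the median of the list (bar). Orange and blue points passed an unadjusted limma p under 0.05 and 2-fold, and dotted lines mark 2-fold. Natural killer, macrophage and plasma cell lists have medians of 1.53, 1.00 and 1.00, whereas the T cell list has a median of 0.13 and the smooth muscle list one of 0.02.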

How the data were processed

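Values are linear intensities, 1 per RefSeq transcript and array, in a table deposited by the authors after scanning on an Axon GenePix instrument and analysis in NimbleScan. The submitters' processing notes name RMA, and the rule for blank rows and the genome build were not given in the sources used here. Of 26420 rows, 18350 had values on all 4 arrays (median intensity 848 to 893 per array) and 8070 on none. Depth does not apply to arrays, and their number limits the precision.

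Intensities were turned into log2 values without further scaling, pseudocount or filter. limma 3.58.1 in R 4.3.3 (lmFit, eBayes, default settings) compared MSCT with control over all rows, with Benjamini-Hochberg adjustment over all of them, and the fit was tested on simulated data. Names came from RefSeq's GRCr8 gene table, which gave none of the coordinates of the rows (7068 measured rows were named), and start regions came from the RefSeq promoter table. Named were all 10 genes of the set, up to 5 genes per list and direction past the screen, the first 3 measured markers of each list, the 5 genes nearest to Zap70 and 4 reference genes. Blank or unmatched genes of the lists were named where they define a cell type or receptor, and other genes outside the rule are marked as chosen after their values were seen. The genes and lists were chosen with earlier results of these data known. Alternatives were the methods' t-test, 2 normalizations, 2 filters on dim rows, another variance model, a pseudocount of 16, the replicate block, each array left out, other fold limits and scales, and the mean of a gene's rows. Python 3.11.15 was used for names and figures.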

Additional observations from a re-analysis of the deposited data

How the results depend on the processing

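Of the 5 measured genes, Zap70, Blk, Syk and Cd4 kept their direction under every alternative in which they were tested. With single arrays left out, the sign turned for Acta2 (-0.26 to 0.18), Ccr7 (-0.65 to 1.19), Cd14 (-0.16 to 0.076), Cd3g (-0.25 to 0.51), Cd86 (-0.69 to 0.17), Cd8a (-0.59 to 0.60), Cdh1 (-0.12 to 0.070), Cnn1 (-0.10 to 0.26), Dcn (-0.26 to 0.27), Kdr (-0.17 to 0.28), Kit (-0.12 to 0.48), Lat (-0.50 to 0.53), Lum (-0.56 to 0.61), Mcpt4 (-0.25 to 0.93), Pecam1 (-0.039 to 0.61), Tagln (-0.0054 to 0.046) and Tpsab1 (-0.42 to 0.24). It also turned for Ccr7 with linear means (-0.0016), Cdh1 with equal array medians (0.011), Dcn with quantile normalization (-0.025), Dcn with linear means (-0.010), Lum with quantile normalization (-0.0061), Lum with linear means (-0.087) and Tagln with quantile normalization (-0.017). The number of the 5 genes past the screen, 2 in the report, was 0 by the methods' t-test and 0 without the dimmest 25% or 50% of rows, because both filters leave out Zap70 and Blk, and it lay between 0 and 2 with single arrays left out. The count over all rows, 850 in the report, was 388 by the methods' t-test, 251 without the dimmest 50% of rows, 2019 with a fold limit of 1.5 and 934 to 1565 with single arrays left out. It was 1565 without control replicate 2 and 1503 without MSCT replicate 2. Rows with an adjusted p under 0.05, 0 in the report, were 387 with the intensity-dependent robust variance, 247 without the dimmest 50% and 4 without the dimmest 25% of rows, and 0 of the 5 genes were among them. Without the dimmest 25% or 50% of rows, 0 genes of T cell receptor-proximal signaling and 0 negative regulators passed, because Txk, Skap1 and Sla were left out. With single arrays left out, the counts were 0 to 3 for receptor-proximal signaling, 0 to 1 for the B cell receptor list and 0 to 2 for costimulatory receptors. The replicate numbers are labels, and nothing ties equal numbers to a shared batch. Deviations of equal numbers correlated at r = 0.23 across 18350 rows, which are not independent replicates. With the replicate block, 971 rows and 2 of the 5 genes passed the screen, and the block changed no call of the screen among the genes named. Quantile normalization, equal array medians, a pseudocount of 16, linear means and an intensity-dependent variance kept both Zap70 and Blk past the screen.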
